A study of Mus musculus with 6 samples.

Results

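The genes described here encode the machinery that makes ribosomes in the nucleolus: RNA polymerase I and its initiation factors, the box C/D and box H/ACA small nucleolar ribonucleoproteins (snoRNPs), the assembly factors of both ribosomal subunits, and abundant nucleolar scaffold proteins and helicases. They were chosen by gene symbol and comprised 42 of the 53465 genes in the count table. Ribosomal proteins were not among them. All 42 genes were found and all 42 passed the filter on low counts.

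RNA was sequenced from primary cell lines grown from liver tumours of C57BL/6 mice, 3 lines of genotype Myc_Utx (2A, 2B and 2D) and 3 of genotype Myc_p53 (1, 2 and 3), the control. Per the study's methods, every tumour had been induced by delivering a transposon that expresses c-myc into hepatocytes through the tail vein, together with Cas9 and a guide RNA against Kdm6a (also named Utx, a histone H3K27 demethylase) in Myc_Utx, whereas the Myc_p53 control lines carry a different edit. Both groups therefore share oncogenic Myc and differ at both edited loci, whose parts in a difference cannot be told apart. Each line came from a different animal and was sequenced once, no untreated or unedited liver cells were analysed here, and the study used the comparison to ask which transcripts depend on Kdm6a.

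Ribosome production starts when RNA polymerase I transcribes the ribosomal DNA into a long precursor. SnoRNPs then guide methylation and pseudouridylation of that precursor, and assembly factors fold it, cut it and load it with ribosomal proteins on separate small and large subunit paths. Myc is well known to raise transcription of these genes, mTORC1 signalling is known to drive RNA polymerase I, and large nucleoli are a classical sign of fast-growing tumour cells, liver cancer among them.

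Total counts ranged from 4656103 to 5473042 in Myc_Utx lines and from 5370608 to 6937497 in Myc_p53 lines, and 11510 genes were tested. Kdm6a counts, given to check the labels, were 199, 244 and 220 in Myc_Utx lines and 440, 348 and 298 in Myc_p53 lines, and scaled to library size the groups overlapped (log2 fold change -0.39, edgeR adjusted p = 0.243). Counts over a whole gene do not check a small edit in its coding sequence. The mouse gene Myc gave a log2 fold change of -0.16 (edgeR adjusted p = 0.667). Whether its count includes transcripts of the delivered c-myc transposon was not tested. The summed level of 10 hepatocyte markers was 7.58 to 47.4 counts per 1000000 counts (CPM) in Myc_Utx and 41.9 to 88.8 CPM in Myc_p53, so the defining transcripts of the liver cell were almost absent from both groups. The summed level of 10 stellate cell and fibroblast markers ran from 1953 to 2692 CPM in Myc_Utx and from 41.9 to 3164 CPM in Myc_p53. Most of the Myc_Utx sum was Col3a1 (1730.5 to 2558 CPM), which measured 10.3, 2721 and 73.9 CPM in Myc_p53 lines 1, 2 and 3. Of the 5 stellate cell and fibroblast markers tested, 0 passed the adjusted p. Their log2 fold changes were above 0 for 2 and below 0 for 3. Cholangiocyte markers, 6 in all, summed to 510 to 1441 CPM in Myc_Utx and 153 to 1478 CPM in Myc_p53. Of the 3 tested, 0 passed the adjusted p and 2 had log2 fold changes above 0. The other, Krt19, was lower in Myc_Utx without overlap (log2 fold change -3.22, edgeR adjusted p = 0.0653). The summed level of 13 macrophage markers ran from 37.6 to 56.6 CPM in Myc_Utx, most of it Cd14 (32.3 to 53.2 CPM), and from 67.5 to 143.9 CPM in Myc_p53. Of the 9 macrophage markers tested, Cd14 was higher in Myc_Utx (edgeR adjusted p = 0.0399) and 7 were lower, among them Lyz2 and Csf1r, which had 0 counts in Myc_Utx_2A and Myc_Utx_2D and 19.3 to 48.1 CPM and 7.23 to 40.9 CPM in Myc_p53. In Myc_Utx, 5 of the 13 markers had 0 counts in every line. The part of these differences in the results below was not tested.

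Every ribosome biogenesis gene that passed the test was higher in Myc_Utx lines. At an adjusted p under 0.05 in edgeR's quasi-likelihood F test, 9 of 42 genes (21.4%) were higher and 0 were lower, whereas 6.99% of all genes tested were higher and 7.69% were lower. The 9 genes were Rrs1, Npm1, Nle1, Ncl, Bysl, Nop16, Fbl, Nop58 and Polr1d. At an unadjusted p under 0.05 in the same test there were 19 of the 42 genes, beside 4026 of all 11510 genes tested. The log2 fold change (Myc_Utx over Myc_p53) was above 0 for 35 genes and below 0 for 7, with a median of 0.31 and a range from -0.32 to 1.01, beside a median of -0.01 over all genes tested. Changes were therefore small: only Rrs1 also exceeded a 2-fold change, which 2.32% of all genes did in the higher direction and 5.07% in the lower.

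The 3 Myc_Utx lines lay above all 3 Myc_p53 lines for 22 genes and below all of them for 1 gene, Tsr1. The same held for 21.1% and 20.9% of all genes tested. By line, the median difference from the Myc_p53 mean on the log2(CPM + 1) scale, over the 42 genes, was 0.16 in Myc_Utx_2A, 0.46 in Myc_Utx_2B and 0.46 in Myc_Utx_2D. It was 0.07, -0.12 and 0.03 in Myc_p53 lines 1, 2 and 3. Myc_Utx_2A was thus the closest of its group to the control lines. The adjusted calls changed with the line left out. Without Myc_Utx_2A, Myc_Utx_2B, Myc_Utx_2D or Myc_p53_3, 0 of the 42 genes passed the threshold, and without Myc_p53_1 there were 4. Related genes lost calls too. Other genes of the same pathways, described further on, went from 19 higher to 0 without any 1 of the Myc_Utx lines, and to 1 without Myc_p53_3. Without Myc_p53_2, 7 genes were higher and 1, Polr1a, was lower. With a line left out, 14 to 22 of the 42 genes had an unadjusted p under 0.05 over the 6 cases. The share of all genes past either threshold in these 6 fits is not given here. The median log2 fold change of the 42 genes stayed between 0.28 and 0.41.

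**Figure D1:**
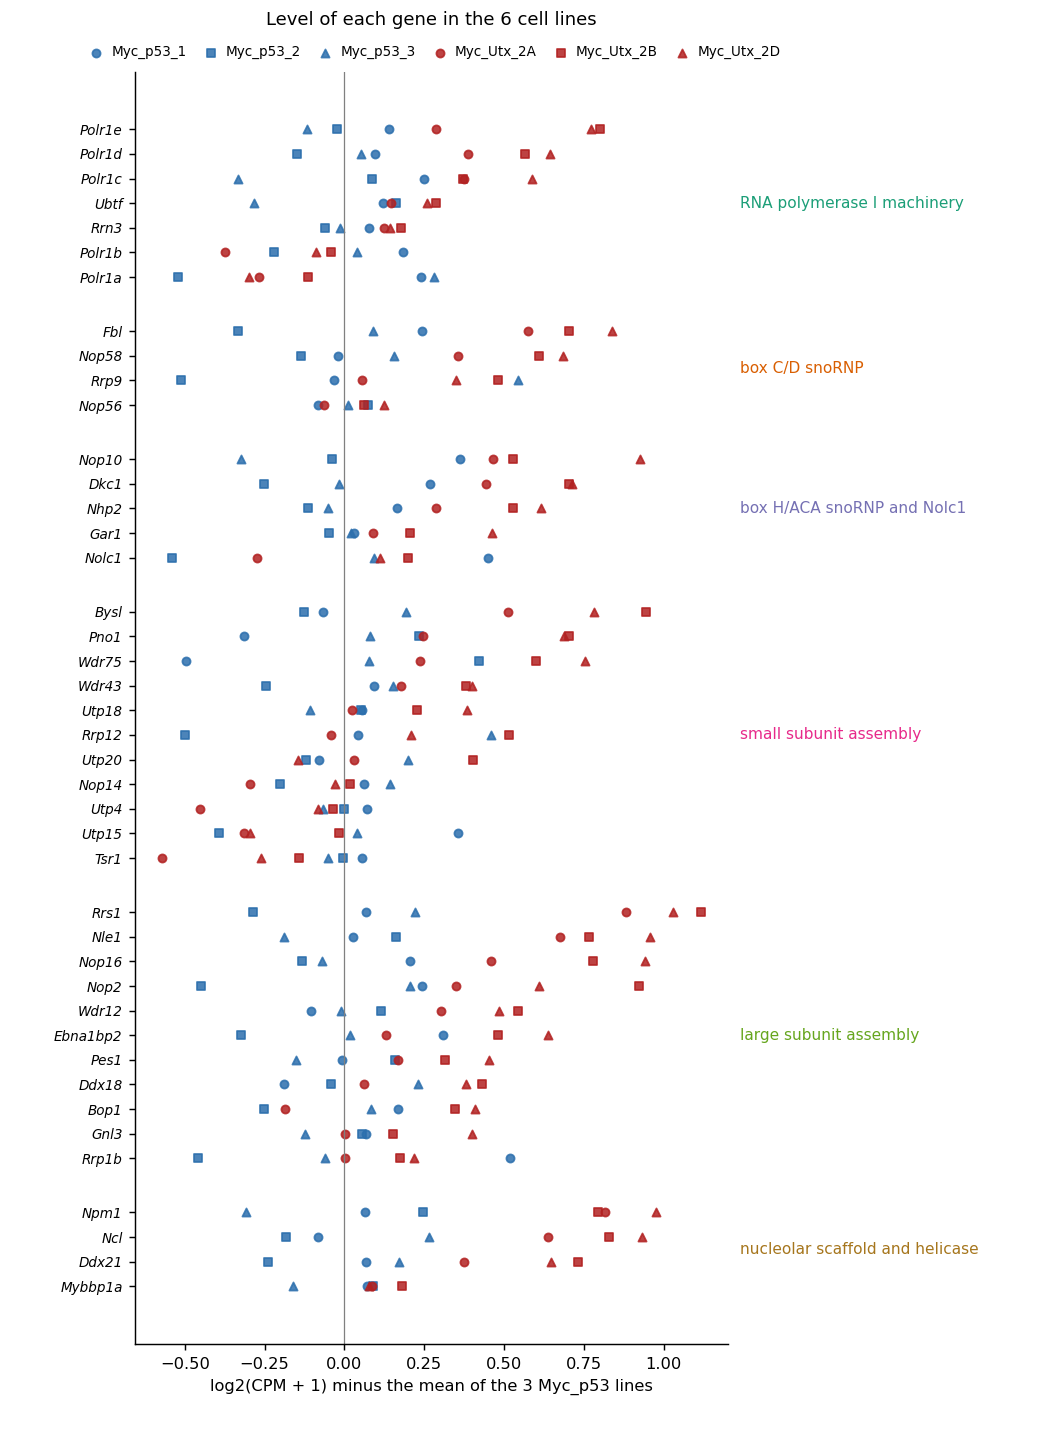
Level of each of the 42 genes (rows, grouped by role) in the 3 Myc_Utx lines (red) and the 3 Myc_p53 lines (blue), as log2(CPM + 1) minus the mean of the Myc_p53 lines, with CPM scaled by TMM. The red points lie to the right of all blue points for 22 genes, and Myc_Utx_2A (red circle) is often the lowest of its group.

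Nucleolar scaffold proteins gave the most abundant of these transcripts. Npm1, a histone chaperone that holds the granular part of the nucleolus together, measured 2960, 2913 and 3306 CPM in Myc_Utx lines and 1753, 1992 and 1354 CPM in Myc_p53 lines. Ncl, nucleolin, which binds nascent ribosomal RNA, measured 3508, 4010 and 4308 CPM against 2128, 1988 and 2712 CPM. Every Myc_Utx line exceeded every Myc_p53 line for both transcripts. The log2 fold change was 0.85 for Npm1 (standard error 0.17, edgeR adjusted p = 0.0272) and 0.79 for Ncl (standard error 0.16, edgeR adjusted p = 0.0287). Npm1 also had the highest level per length of the 42 genes, 893 CPM per kilobase of its listed transcript over all lines, and 2026 per kilobase of a typical transcript. Its count is uncertain because 4 pseudogenes carry near-identical copies of the transcript. Ddx21, a DEAD-box helicase of the nucleolus, gave a log2 fold change of 0.58 (edgeR adjusted p = 0.0521) with no overlap between the groups. Mybbp1a, a Myb-binding protein of the nucleolus, measured 866, 924 and 860 CPM against 856, 868 and 729.5 CPM, and its log2 fold change was 0.11 (standard error 0.11, edgeR adjusted p = 0.509).

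Together the 42 genes took 1.56% ± 0.122 of all counts in Myc_Utx lines and 1.17% ± 0.0757 in Myc_p53 lines (SD, n = 3 each; two-sided exact permutation test, p = 0.1, the smallest that 3 against 3 lines allow). Npm1 and Ncl alone took 0.682% ± 0.0492 and 0.404% ± 0.00615 (SD, n = 3 each), a ratio of 1.69. The other 40 genes took 0.879% ± 0.0822 and 0.769% ± 0.0744 (SD, n = 3 each; exact permutation test, two-sided p = 0.2), and here the groups overlapped. Most of the difference in share therefore lay in these 2 transcripts.

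**Figure D2:**
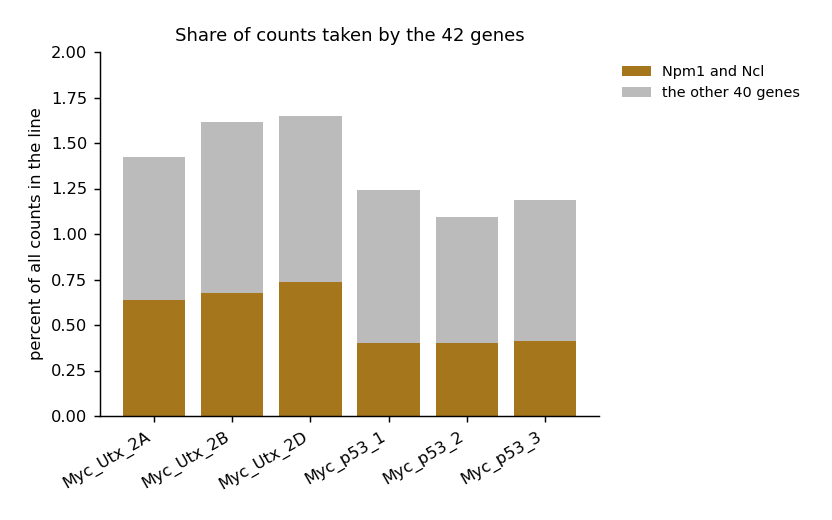
Percent of all counts in each cell line (y axis) taken by Npm1 and Ncl (brown) and by the other 40 genes (grey). The full bars reach 1.42 to 1.65% in Myc_Utx lines and 1.09 to 1.24% in Myc_p53 lines.

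Polr1a, the largest subunit of RNA polymerase I, measured 256, 285 and 250 CPM in Myc_Utx lines and 364, 214 and 375 CPM in Myc_p53 lines. The control lines were spread widely and enclosed all Myc_Utx values. Its log2 fold change was -0.27 (standard error 0.22, edgeR adjusted p = 0.422), and Polr1b, the second catalytic subunit, gave -0.17 (edgeR adjusted p = 0.453). Without Myc_p53_2, the low control line, Polr1a passed the threshold as lower (log2 fold change -0.48, edgeR adjusted p = 0.0373).

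Polr1e, a subunit that helps the polymerase engage its promoter, measured 47.9, 68.7 and 67.5 CPM in Myc_Utx lines and 43.1, 38.4 and 35.9 CPM in Myc_p53 lines. Its groups did not overlap, and its log2 fold change was the highest of the 7 genes of this role at 0.65 (standard error 0.19, edgeR adjusted p = 0.0616). Polr1d, an assembly subunit shared with RNA polymerase III, was the gene of this role that passed the test, at 0.54 (edgeR adjusted p = 0.0392), and its partner Polr1c gave 0.43 (edgeR adjusted p = 0.137). These subunits differ in listed transcript length, from 11871 bases for Polr1a to 2278 for Polr1c, and with the length offsets described further on the values were 0.01 for Polr1a, -0.07 for Polr1b, 0.29 for Polr1c, 0.47 for Polr1d and 0.65 for Polr1e. Differences between subunits were not tested. The transcription factors that bring the polymerase to the ribosomal DNA differed little: Ubtf gave a log2 fold change of 0.22 and Rrn3 of 0.15.

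Box C/D snoRNPs carry out ribose methylation. Their methyltransferase Fbl, fibrillarin, measured 157, 172 and 189 CPM in Myc_Utx lines and 125, 83.2 and 112 CPM in Myc_p53 lines, with no overlap. Its log2 fold change was 0.69 (standard error 0.17, edgeR adjusted p = 0.0463), and 2 other genes carry copies of its sequence. The paired core proteins Nop58 and Nop56 gave different values. Nop58 was higher in Myc_Utx lines (log2 fold change 0.55, edgeR adjusted p = 0.0425). Nop56 measured 395, 431 and 451 CPM against 390, 435 and 416 CPM and the groups overlapped (log2 fold change 0.04, standard error 0.10, edgeR adjusted p = 0.795). Rrp9, a protein of the U3 snoRNP that acts in early precursor cleavage, gave 0.24.

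Box H/ACA snoRNPs convert uridine to pseudouridine, and 0 of the 5 genes of this role passed the test. Nop10, a small core protein, had the highest log2 fold change at 0.63 (standard error 0.22, edgeR adjusted p = 0.0972). It measured 106, 111 and 146 CPM in Myc_Utx lines and 98.6, 74.3 and 60.9 CPM in Myc_p53 lines, so the groups were separate by a narrow margin. The pseudouridine synthase Dkc1 gave 0.61 (edgeR adjusted p = 0.0525), Nhp2 gave 0.48 (edgeR adjusted p = 0.0591) and Gar1 gave 0.26, all without overlap. Nolc1, a chaperone that ferries snoRNPs to the nucleolus, had the lowest value. It measured 501, 695 and 654 CPM against 828, 416 and 646 CPM, and the spread of the control lines covered the whole range (log2 fold change -0.03, standard error 0.26, edgeR adjusted p = 0.946).

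Small subunit assembly factors fell on both sides of 0, with 7 log2 fold changes above it and 4 below. Bysl, needed late in maturation of the small subunit, measured 78.2, 106 and 94.4 CPM in Myc_Utx lines and 52.0, 49.9 and 62.5 CPM in Myc_p53 lines. It was the gene of this role that passed the test, with a log2 fold change of 0.76 (standard error 0.16, edgeR adjusted p = 0.0334). Its annotated exons overlap those of Ccnd3, and how reads in the shared part were counted is not known. At the other end, Tsr1, a GTPase-like factor of the late cytoplasmic steps, measured 84.4, 114 and 105 CPM against 131, 125 and 121 CPM. Tsr1 was lower in every Myc_Utx line than in any Myc_p53 line but did not pass the test (log2 fold change -0.32, standard error 0.14, edgeR adjusted p = 0.16).

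Utp4, Utp15, Wdr43 and Wdr75 belong to the complex that binds the nascent precursor first. Their log2 fold changes fell on both sides of 0, at -0.18, -0.24, 0.31 and 0.50 in that order, and none of these passed the test. Of the remaining factors, Pno1, which sits at the end of the small subunit RNA, gave 0.55, Utp18 gave 0.22, the export factor Rrp12 gave 0.20, the large scaffold protein Utp20 gave 0.11 and Nop14 gave -0.10.

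All 11 large subunit assembly factors had log2 fold changes above 0, although Rrp1b fell below 0 when Myc_p53_2 was left out. Rrs1, which brings a small ribosomal RNA and its proteins into the young subunit, measured 164, 193 and 181 CPM in Myc_Utx lines and 92.4, 72.1 and 103 CPM in Myc_p53 lines. The lowest Myc_Utx line stood well above the highest control line. The log2 fold change of 1.01 (standard error 0.16, edgeR adjusted p = 0.0185) was the largest of the 42 genes, but it was 0.84 with length offsets, under which Ncl was the largest and the gene beyond 2-fold. Nle1, which engages the remodelling ATPase of the maturing subunit, gave 0.82 (edgeR adjusted p = 0.0274) and Nop16 gave 0.74 (edgeR adjusted p = 0.0376). Among the 3 proteins of the PeBoW complex, required to process the precursor, log2 fold changes were 0.45 for Wdr12 (edgeR adjusted p = 0.0519), 0.31 for Pes1 and 0.20 for Bop1.

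The RNA methyltransferase Nop2 gave 0.62, Ebna1bp2 gave 0.41, the helicase Ddx18 gave 0.29 and the GTPase Gnl3 gave 0.19, and none of the 4 passed the test. Rrp1b had the lowest value of this role. It measured 134, 152 and 156 CPM in Myc_Utx lines and 193, 97.5 and 129 CPM in Myc_p53 lines, which overlapped (log2 fold change 0.08, standard error 0.25, edgeR adjusted p = 0.847). Wdr12 had the lowest level per length of the 42 genes, 9.95 CPM per kilobase of its listed length, but 36.6 CPM per kilobase of a typical transcript, on which scale Rrp12 was the lowest at 17.3.

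**Figure D3:**
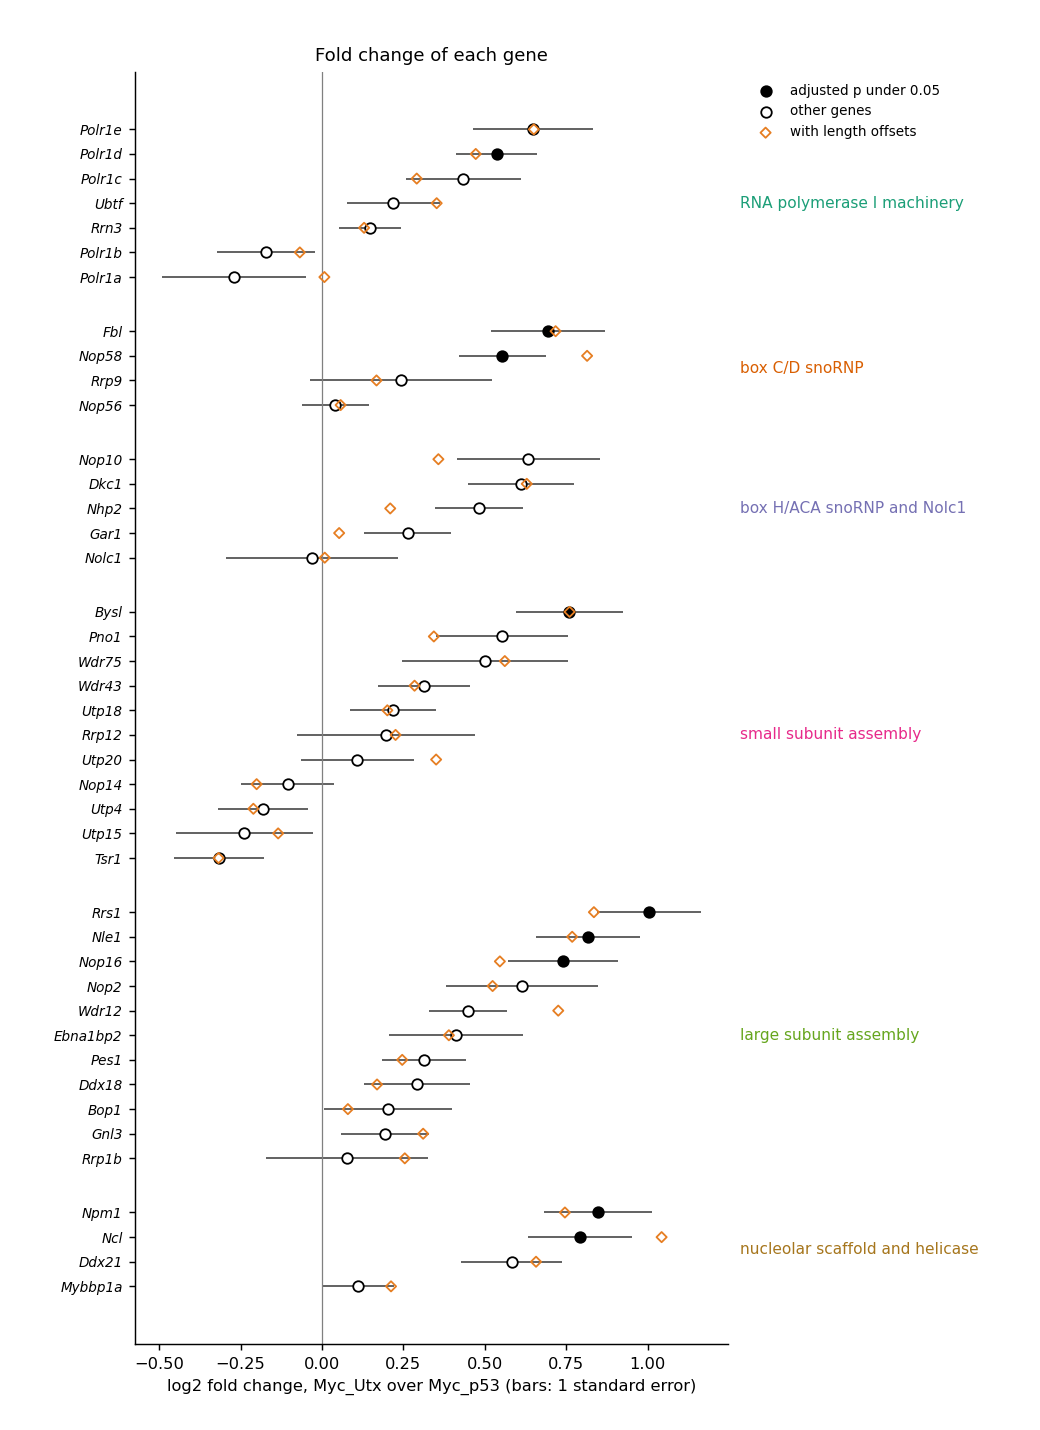
Log2 fold change of each gene, Myc_Utx over Myc_p53 (circles, with 1 standard error; filled where the adjusted p is under 0.05), grouped by role, and the value after correction for transcript length (orange diamonds). Filled circles are found in 5 of the 6 roles, and the values run from -0.32 for Tsr1 to 1.01 for Rrs1.

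Transcript length was examined because shorter transcripts were higher in Myc_Utx lines across the whole table. Over all 11510 genes, Spearman's rho between log2 fold change and the listed transcript length was -0.249, and over the 42 genes it was -0.325. These genes share the same libraries, so the values are given as a description without a p. When genes were divided into 4 length classes of similar size, all genes together had a median log2 fold change of 0.23, 0.06, -0.07 and -0.23 from the shortest to the longest class. The median of the ribosome biogenesis genes in the same classes was 0.48 (11 genes), 0.31 (17 genes), 0.15 (8 genes) and 0.28 (6 genes), above that of all genes in each class. Genes with a long listed length among those called were Nop58, at 10758 bases, and Ncl, at 10188 bases. A typical transcript of Nop58 is 5610 bases and one of Ncl 8202 bases, so the listed length overstates both.

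With per-line offsets that remove the trend with length, rho fell to -0.0101 over all genes and was 0.0861 over the 42 genes. The median log2 fold change of the 42 genes was then 0.30, and 9 genes were higher and 0 lower, beside 6.00% and 5.13% of all genes. Of these 9 genes, 7 were also called without offsets. Nop16 (edgeR adjusted p = 0.0705) and Polr1d (edgeR adjusted p = 0.0577) no longer passed, and Wdr12 (edgeR adjusted p = 0.0253) and Ddx21 (edgeR adjusted p = 0.045) passed instead. Several short transcripts moved towards 0: Nop10 went from 0.63 to 0.36, Nhp2 from 0.48 to 0.21 and Gar1 from 0.26 to 0.05. Ncl, which is long by its listed length, went from 0.79 to 1.04. With offsets built on the length of a typical transcript, chosen after seeing the data, Ncl was 1.19. On the listed and typical scales Nop58 was 0.81 and 0.84, and Npm1 was 0.75 and 0.64. The listed length is the union of all annotated exons for 36 of the 42 genes, which exceeds the length of a typical transcript for genes such as Ncl (8202 bases) and Npm1 (2665 listed, 1174.5 typical).

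**Figure D4:**
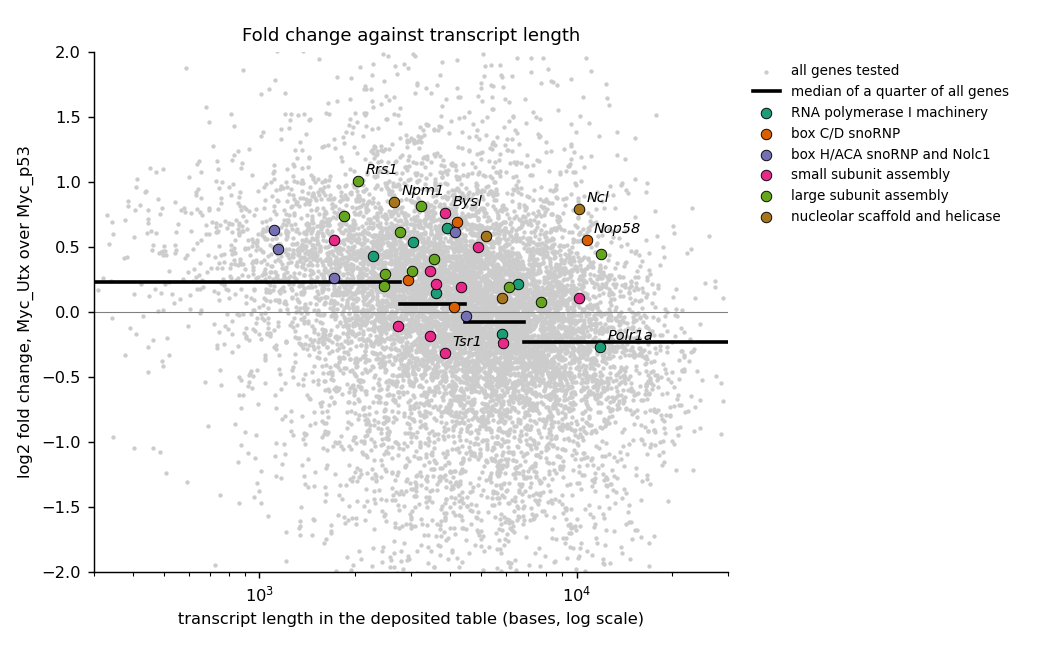
Log2 fold change, Myc_Utx over Myc_p53, against listed transcript length on a log scale, for all genes tested (grey; points beyond a log2 fold change of 2 in size are outside the frame) and for the 42 genes (coloured by role). Black lines mark the median of all genes in each of 4 length classes and fall from 0.23 to -0.23, while most coloured points lie above them.

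DESeq2, the tool named in the study's methods, called 14 of the 42 genes higher and 0 lower, beside 9.37% and 11.5% of all genes. All 9 edgeR calls were among the 14, and Polr1e, Dkc1, Nhp2, Wdr12 and Ddx21 were added.

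Promoters were searched for the letters CACGTG, the E-box to which Myc and its partner Max bind, because both groups were driven by Myc. RefSeq windows from 250 bases before to 50 bases after the gene start were given for 37 of the 42 genes, and Npm1, Fbl, Rrp12, Bop1 and Rrs1 had no entry. The motif reads the same on both strands. It was present in 11 of the 37 genes with a window (29.7%). The share was 12.3% of the 8860 tested genes with a window and 8.09% of all 27025 gene symbols with a window. It was held by 6 of 10 small subunit assembly genes, 3 of 9 large subunit assembly genes and 1 of 3 nucleolar scaffold and helicase genes. RNA polymerase I genes held it in 1 of 7 cases, box C/D genes in 0 of 3 and box H/ACA genes in 0 of 5. Of further small and large subunit assembly genes with a window, 18.2% (6 of 33) and 17.5% (7 of 40) held it. The stretches of the 6 small subunit genes, and that of Nle1, the only gene past the threshold with the motif, are shown 5′ to 3′ on the strand of the gene, with the motif in capitals, since they show how the same letters stood in genes with fold changes on both sides of 0.
Wdr43: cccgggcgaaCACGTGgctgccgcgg
Utp4: cgcaagcgcgCACGTGgggccggggc
Utp18: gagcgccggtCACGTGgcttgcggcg
Utp20: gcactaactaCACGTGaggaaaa
Pno1: tacaaccacgCACGTGttcctct
Tsr1: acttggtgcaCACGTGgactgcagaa
Nle1: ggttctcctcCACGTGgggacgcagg

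In the build GRCm38.p6 the Wdr43 stretch is at chr17:71616222-71616247 (plus strand), the Utp4 stretch at chr8:106893645-106893670 (plus) and the Utp18 stretch at chr11:93885771-93885796 (minus). Utp20 is at chr10:88826765-88826787 (minus), Pno1 at chr11:17211540-17211562 (minus), Tsr1 at chr11:74898094-74898119 (plus) and Nle1 at chr11:82908357-82908382 (minus). The motif of Utp18 began 20 bases before the gene start, and that of the other genes shown lay after it, within the transcribed part. The median log2 fold change was 0.22 over the 11 genes with the motif, beside 0.42 over the 26 without it, and Nle1 (0.82) and Tsr1 (-0.32) both carried it. The motif was found in 1 of 6 genes past the threshold that had a window and in 10 of 31 that were not.

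Other genes of the same pathways, 131 tested of 132 listed, gave 19 higher and 1 lower. The counts of this list and those that follow stand beside the 6.99% higher and 7.69% lower of all genes tested. Among 43 further small subunit assembly genes, 5 (11.6%) were higher and 0 lower. Their log2 fold changes had a median of 0.29 and ran from -0.44 for Pdcd11 (edgeR adjusted p = 0.0906) to 1.08 for Mphosph10 (edgeR adjusted p = 0.0392), a partner of the U3 snoRNP. Among 47 further large subunit assembly genes, 9 (19.1%) were higher and 0 lower, with a median of 0.22. Rpf2, which works with Rrs1 on the same assembly step, was the highest of them. It measured 101, 107 and 108 CPM in Myc_Utx lines and 52.3, 54.9 and 60.3 CPM in Myc_p53 lines, a narrow spread within each group and no overlap (log2 fold change 0.92, standard error 0.11, edgeR adjusted p = 0.0141). Spata5 was the lowest at -0.50 (edgeR adjusted p = 0.251).

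Of 8 further RNA polymerase I genes, Cd3eap, the partner subunit of Polr1e, was higher, at 57.8, 71.7 and 81.5 CPM in Myc_Utx lines against 31.1, 28.2 and 38.8 CPM in Myc_p53 lines. The groups were well apart (log2 fold change 1.10, standard error 0.20, edgeR adjusted p = 0.0223). Ttf1, which ends transcription of the ribosomal DNA, was the lowest at -0.39 (edgeR adjusted p = 0.125). Of 5 subunits shared between nuclear RNA polymerases, 2 were higher, Polr2l (log2 fold change 1.61, edgeR adjusted p = 0.0239) and Polr2f (0.85, edgeR adjusted p = 0.0404). Polr2l is weakly expressed, at 28.1 to 34.1 CPM against 7.41 to 14.3 CPM.

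RNA polymerase III genes, which make the small ribosomal RNA and transfer RNAs, were evenly split: of 18 genes, 1 was higher (Gtf3c1, 0.63) and 1 lower (Gtf3c4, -0.63), 5.56% each and near the share of all genes, with a median of -0.05. SnoRNP assembly genes gave 1 higher of 10, the ATPase Ruvbl2 (0.87, edgeR adjusted p = 0.0164), with a median of 0.38. Cytosolic ribosomal protein genes, the cargo of the pathway, were higher in 32 of 79 cases (40.5%) and lower in 0, with a median of 0.60 that became 0.42 with length offsets, under which 20 were higher. Differences between these lists were not tested.

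**Figure D5:**
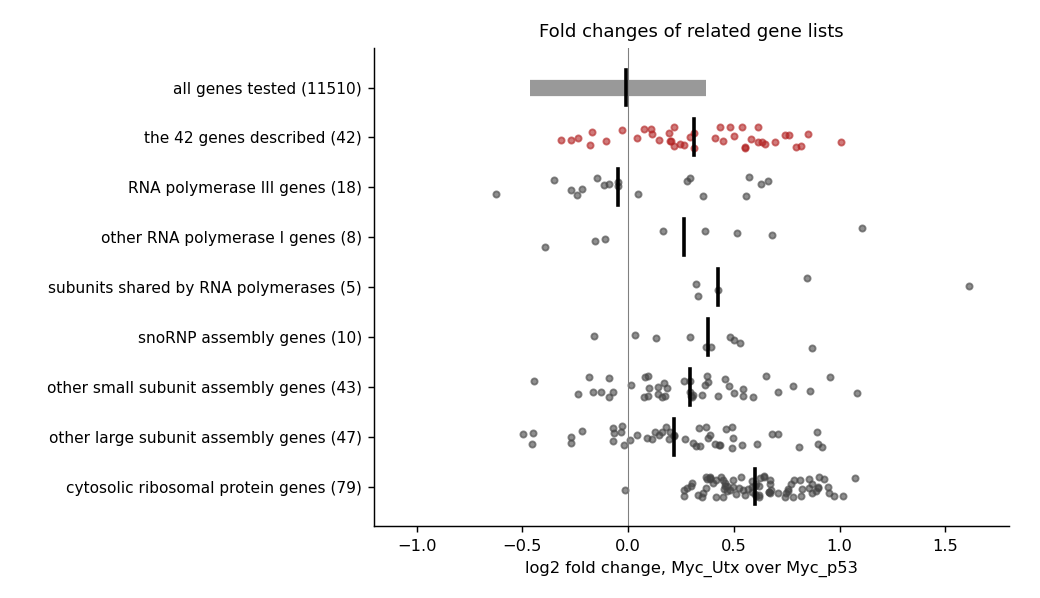
Log2 fold changes, Myc_Utx over Myc_p53, of the 42 genes (red) and of 7 related lists (grey points; number of genes in parentheses), with the median of each as a black line. For all genes tested the grey bar spans the middle 50% of values. The median is -0.05 for RNA polymerase III genes and 0.60 for ribosomal protein genes.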

How the data were processed

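Total RNA from 6 tumour cell lines (3 Myc_Utx, 3 Myc_p53, grouped by the labels) was sequenced by the authors, who deposited raw counts of reads per Ensembl gene with a transcript length. The submitters' processing notes name Trimmomatic 0.36, STAR 2.5.3a, featureCounts 1.6.3, DESeq2 1.20.0 and the builds GRCm38 and mm10, whereas the methods of the study name a different counter, a human build and lines edited in Mll3. The labels were followed. Whether counting used strand is not given in the sources used here, and 19 of the 42 genes have exons overlapping another gene.

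Genes were kept by filterByExpr (minimum count 10), scaled by TMM and compared with edgeR 4.0.16 (R 4.3.3) by the quasi-likelihood F test, with Benjamini-Hochberg adjustment over all 11510 genes tested. A standard error is the size of a log2 fold change over the root of its F statistic. CPM are counts per 1000000 after TMM scaling. Shares of counts used two-sided exact permutation tests. Length offsets came from robust regression on natural splines with 5 degrees of freedom. The other alternatives were DESeq2 1.42.0, its size factors, total counts only, no filter, at least 10 counts in every line, and each line left out. The procedure was checked on simulated data with planted changes larger than those of the ribosome biogenesis genes, so the check does not cover calls at their size. At total counts of 4656103 to 6937497 per line, the biological coefficient of variation was 33.4%, and p-values cover the spread between lines.

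Near-identical copies were matches of at least 300 bases at 95% identity elsewhere in the transcripts of GENCODE M21. Of the 42 genes, 7 had such copies, which makes their counts less certain: Npm1, Fbl, Nop56, Ddx21, Wdr12, Pes1 and Ddx18. The 42 genes, the related lists and the markers were chosen with earlier results of these data known. In each role the genes with the highest and lowest log2 fold change, and those past the threshold with a 2-fold change, are given in full. Others past the threshold are named with their log2 fold change. Of each related list the highest and lowest gene may be named, and Gtf3c1, Polr2f and the remaining genes were named after their values were seen. The label check of the control lines is not reported here.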

Additional observations from a re-analysis of the deposited data

How the results depend on the processing

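The count of 9 higher genes was 9 with DESeq2 size factors, 6 with total counts only (which moved the median of all genes by -0.08), 8 without a filter, 9 with at least 10 counts in every line, 9 with length offsets and 14 with DESeq2. Offsets built on the length of a typical transcript, chosen after seeing the data, gave 8, of which 6 were among the 9. Of these alternatives, the share of all genes called higher is given only for length offsets (6.00%) and DESeq2 (9.37%). Higher genes beyond 2-fold went from 1 to 0 with DESeq2 size factors, total counts only and at least 10 counts in every line, since Rrs1 lies at the limit. Other pathway genes went from 19 to 35 higher with DESeq2, and from 1 to 0 lower with both length offsets. Leaving out each line gave 0 to 7 higher, 0 to 1 lower and 0 to 1 beyond 2-fold among the 42 genes, and 0 to 17 higher and 0 to 1 lower among other pathway genes. Without Myc_p53_1 there were 4 and 12 higher, and without Myc_p53_3 there were 0 and 1. The median log2 fold change of the 42 genes stayed between 0.25 and 0.41 in all settings. The difference in share of counts was 0.389 percentage points, and 0.111 without Npm1 and Ncl.

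The sign turned for 7 genes, none of which passed the test where it turned. With length offsets Polr1a became 0.00739 and Nolc1 0.00850, and with typical lengths Polr1a became 0.144, Nolc1 0.0434 and Nop56 -0.130. Nop56 became -0.0237 with total counts only and -0.00204 with at least 10 counts in every line. With each line left out, the log2 fold change ran from -0.00679 to 0.111 for Nop56, from -0.256 to 0.208 for Nolc1, from -0.0447 to 0.242 for Utp20, from -0.198 to 0.00538 for Nop14, from -0.0166 to 0.449 for Rrp12 and from -0.125 to 0.374 for Rrp1b. The cause was not tested. No paired analysis was possible because the lines of both groups carry no shared replicate numbers. Depth limited no gene, the fewest counts in a line being 199 for Nle1.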

Other observations

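Genes of DNA synthesis and mitosis were also measured. Of 19 proliferation genes, 6 (31.6%) were higher in Myc_Utx lines and 0 lower, beside 6.99% and 7.69% of all genes tested. The median of their log2 fold changes was 0.40, and their summed level was 5538 to 6180 CPM in Myc_Utx and 4474 to 4706 CPM in Myc_p53. Rrm2, a subunit of ribonucleotide reductase, measured 392, 390 and 426 CPM in Myc_Utx lines and 179, 160 and 188 CPM in Myc_p53 lines. The groups were far apart, with a log2 fold change of 1.19 (standard error 0.11, edgeR adjusted p = 0.0103). Top2a, a topoisomerase of dividing cells, was the lowest of the list at -0.20 (edgeR adjusted p = 0.352). The part of cell proliferation in the ribosome biogenesis values was not tested.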
